A study of Mus musculus with 6 samples.

Results

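The genes described here are the thrombospondins Thbs1, Thbs2, Thbs3 and Thbs4 and 6 genes of injury-associated extracellular matrix, Fn1, Tnc, Col1a1, Col1a2, Col4a1 and Sparc. They are 10 of the 32371 genes of a count table. They were chosen by name with the p-values and fold changes of this same comparison in view, Thbs1 being one of its most significant decreases, so the differences of these 10 genes between the groups are given as a description and without a test. All 10 were found by Ensembl identifier, and all 10 passed the filter on low counts, as 10 of the 18138 genes tested.

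The study asked how Ezh2, the histone methyltransferase of polycomb repressive complex PRC2, and its mutant form act on axon regeneration of retinal ganglion cells (RGCs). Adult C57BL/6J mice received AAV2-GFP (GFP group) or AAV2-Ezh2-Y726D (Ezh2-Y726D group) in the vitreous. Ezh2-Y726D carries a tyrosine-to-aspartate change and lacks methyltransferase activity. In both groups the optic nerve crush (ONC) followed after 2 weeks, and CD90.2-positive cells were sorted from the dissociated retinas 3 days after ONC. CD90.2 is the product of Thy1, which T cells carry as well as RGCs, and AAV2 in the vitreous also transduces retinal cells other than RGCs. All animals were therefore injured and infected, and there was no uninjured or uninfected group.

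Each group comprised 3 libraries, numbered as replicates. The labels do not say whether these came from separate animals or from pooled retinas, so all p-values measure the spread between these libraries. Total counts lay between 9333244 and 23782520. GFP replicates 2 and 3 had the lowest total counts, and the rRNA gene CT010467.1 took 50.9% and 52.2% of their counts and 2.55% to 16.1% of the counts of the other 4 libraries. Ezh2 transcripts, in CPM (counts scaled to a common library size by TMM), measured 22.7, 23.8 and 26.3 CPM with GFP and 65.2, 65.5 and 65.1 CPM with Ezh2-Y726D, and vector and endogenous transcripts were not separated. The 9 RGC markers summed to 468 to 479 CPM in the GFP libraries and 447 to 483 CPM in the Ezh2-Y726D libraries. Markers of rods (5281 to 5991 CPM), Müller glia (8647 to 9436 CPM) and endothelial cells (900.1 to 1016 CPM) were present in every library, so the sorted cells were not RGCs alone.

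Thrombospondins are secreted, calcium-binding glycoproteins that bridge cells and matrix. Thbs1 and Thbs2 form trimers and carry the repeats that bind CD36, whereas Thbs3 and Thbs4 form pentamers without them, and Thbs1 can release active TGF-beta from its latent complex. Fibronectin (Fn1), tenascin-C (Tnc), type I collagen (Col1a1 and Col1a2), collagen IV (Col4a1) and the collagen-binding protein Sparc are laid down or remodelled around vessels, glia and infiltrating cells after injury of nervous tissue. Thrombospondins made by astrocytes are also known to promote synapse formation through the calcium channel subunit encoded by Cacna2d1.

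The 10 genes did not move together. By the fold changes fitted in edgeR, Thbs1, Col1a2 and Col1a1 were lower after Ezh2-Y726D by more than 1.5-fold. Fn1 and Col4a1 were lower by less, and Tnc and Sparc were higher by less than 1.5-fold. Thbs2, Thbs3 and Thbs4 were measured with standard errors close to or above their differences. A gene was called when its adjusted p in the quasi-likelihood test of edgeR was under 0.05 and its fold change over 1.5. By this rule 3 of the 10 were called lower and 0 higher. Over all genes tested 8.02% were called, 5.5% lower and 2.52% higher. DESeq2 also called 3 lower and 0 higher, and 2 members were higher at an unadjusted p under 0.05. With no fold change threshold, 5 of the 10 were lower and 2 higher, beside 27.5% of all genes (13.6% lower and 13.9% higher). The libraries of the groups did not overlap for 4 lower and 2 higher members, beside 38.6% of all genes (18.9% lower and 19.7% higher). The median log2 fold change of the 10 was -0.265, and that of all genes tested was 0.002. Nothing is read from these counts, since the comparison that gave them also guided the choice of genes.

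**Figure D1:**
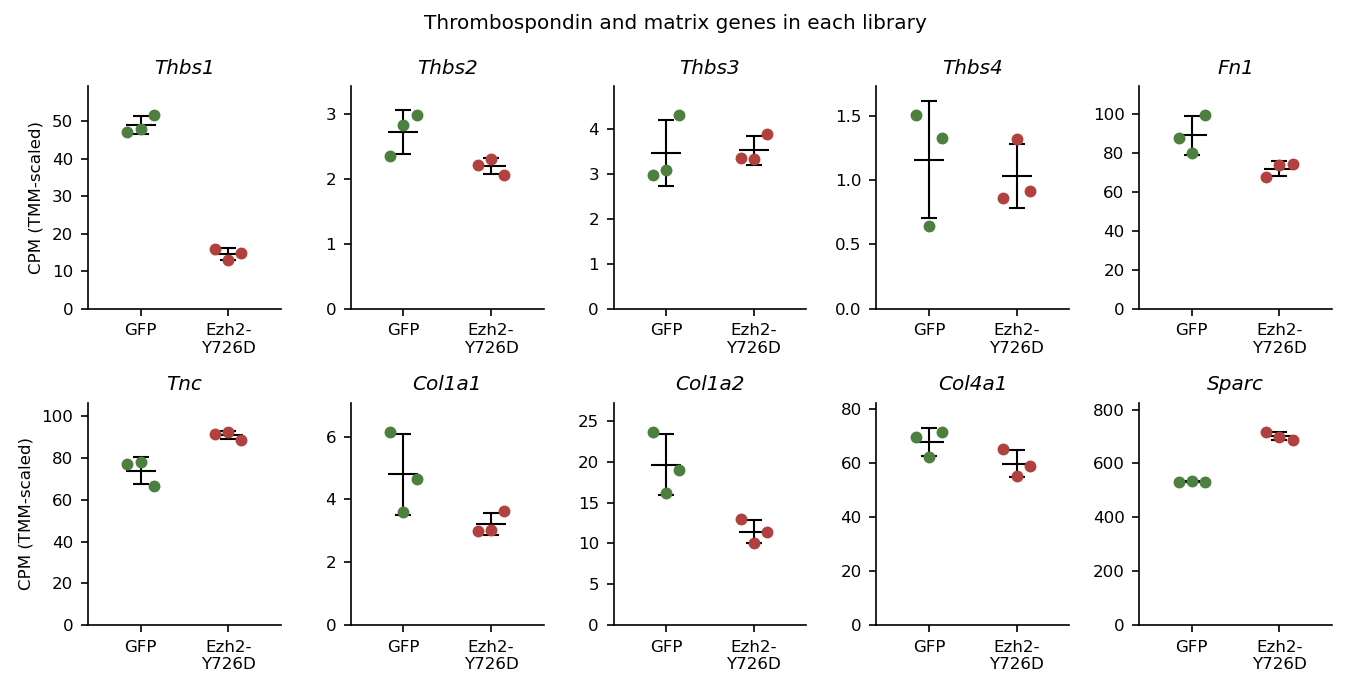
TMM-scaled CPM (vertical axes from 0, a scale of its own for each gene) of the 10 genes in the 3 GFP (green) and 3 Ezh2-Y726D (red) libraries; points are libraries, the long bar is the mean and the whiskers are 1 SD. The Thbs1 points sit at 47.2 to 51.7 CPM in the GFP libraries and at 12.9 to 15.99 CPM in the Ezh2-Y726D libraries, while Sparc lies higher in all 3 Ezh2-Y726D libraries.

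Thbs1 (ENSMUSG00000040152, plus strand of chromosome 2 from 118111876 to 118127133; positions here and below are those of GENCODE vM21 on GRCm38) had the largest difference of the 10. Its level was 47.2, 48.0 and 51.7 CPM in GFP replicates 1, 2 and 3 and 15.99, 12.9 and 14.9 CPM in the Ezh2-Y726D replicates. The lowest GFP library was thus far above the highest Ezh2-Y726D library. The means were 49.0 ± 2.39 CPM and 14.6 ± 1.58 CPM (SD, n = 3 each), that is -1.72 on the log2 scale (standard error 0.0705) or 3.3-fold lower. Among the 18138 genes tested, Thbs1 was number 4 by p-value and number 47 by log2 fold change from the lowest. These ranks rest on 1347, 373 and 312 reads in the GFP libraries and 426, 263 and 440 reads in the Ezh2-Y726D libraries. Leaving out each library in turn gave log2 fold changes between -1.79 and -1.65.

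The other thrombospondins were far less abundant and showed no such difference. Thbs2 (ENSMUSG00000023885, minus strand of chromosome 17 from 14665500 to 14694235), the other trimeric thrombospondin, measured 2.35, 2.83 and 2.98 CPM with GFP and 2.21, 2.30 and 2.06 CPM with Ezh2-Y726D. The groups just missed each other, and the log2 fold change was -0.23 with a standard error of 0.201. Thbs3 (ENSMUSG00000028047, plus strand of chromosome 3 from 89215180 to 89226837) measured 2.98, 3.09 and 4.31 CPM with GFP and 3.34, 3.33 and 3.89 CPM with Ezh2-Y726D. Its groups overlapped, and its log2 fold change was 0.13 with a standard error of 0.175. Thbs4 (ENSMUSG00000021702, minus strand of chromosome 13 from 92751590 to 92794818) measured 1.51, 0.64 and 1.33 CPM with GFP and 0.86, 1.32 and 0.91 CPM with Ezh2-Y726D. Only 5 and 8 reads supported the values of GFP replicates 2 and 3, and the log2 fold change of -0.35 had a standard error of 0.301. A difference in these 3 genes of the size of their standard errors was not detectable at this depth.

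Counts depend on transcript length, so levels were compared between genes as CPM per kilobase of the longest coding transcript. On this scale Thbs1 made up 81.7%, 83.3% and 79.6% of the sum of the 4 thrombospondins in the GFP libraries and 61.8%, 54.4% and 57.8% in the Ezh2-Y726D libraries. The sum itself was 9.87, 9.87 and 11.1 CPM per kb in the GFP libraries and 4.43, 4.05 and 4.40 CPM per kb in the Ezh2-Y726D libraries. Thbs1 thus remained the main thrombospondin transcript in both groups, at a lower level in the Ezh2-Y726D libraries.

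**Figure D2:**
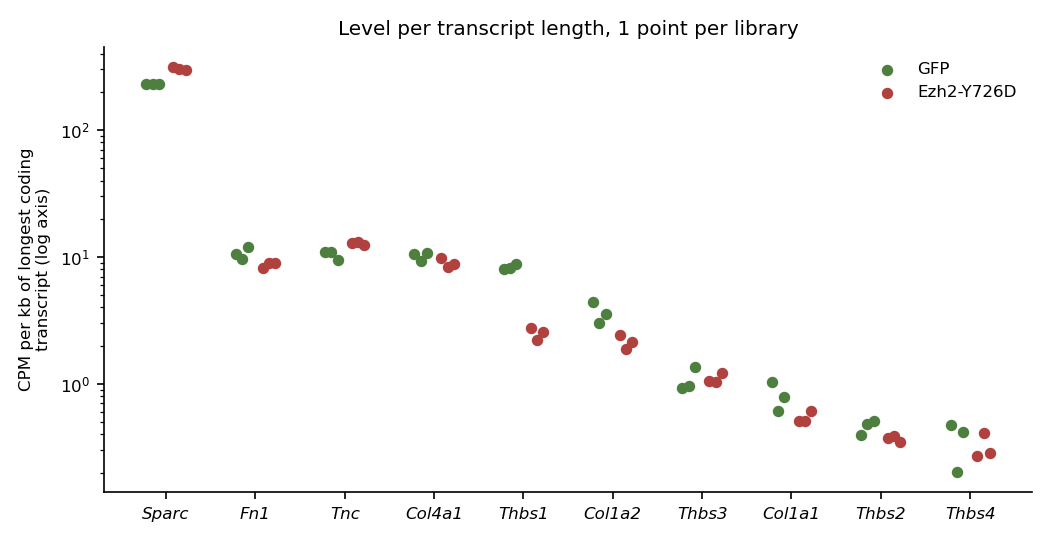
Level of each of the 10 genes as CPM per kb of the longest coding transcript (logarithmic vertical axis), 1 point per library, GFP in green and Ezh2-Y726D in red. Sparc stands at 230.1 to 312 CPM per kb, above all others, and Thbs1 lies just below Fn1, Tnc and Col4a1 in the GFP libraries (8.07 to 8.84 CPM per kb) and beside Col1a2 in the Ezh2-Y726D libraries (2.20 to 2.73 CPM per kb, with 1.88 to 2.42 for Col1a2).

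In the GFP libraries the per-length means were 231 CPM per kb for Sparc, 10.7 for Fn1, 10.4 for Tnc, 10.2 for Col4a1, 8.37 for Thbs1, 3.68 for Col1a2, 1.08 for Thbs3, 0.81 for Col1a1, 0.46 for Thbs2 and 0.36 for Thbs4. Fn1, Tnc and Col4a1 overlapped between libraries, as did Thbs3 with Col1a1 and Thbs2 with Thbs4. In the Ezh2-Y726D libraries Tnc, at 12.8 CPM per kb, lay above Col4a1 at 9.02 and Fn1 at 8.67 without overlap. Thbs1, at 2.49 CPM per kb, there overlapped Col1a2 at 2.14. Scaling by the merged length of all exons instead placed Fn1 after Thbs1 in the GFP libraries, so the order of neighbours depends on the length used.

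Type I collagen is a heterotrimer of the chains encoded by Col1a1 and Col1a2, the main fibrillar collagen of scar and connective tissue. Col1a2 (ENSMUSG00000029661, plus strand of chromosome 6 from 4504814 to 4541544) measured 23.7, 16.2 and 19.0 CPM with GFP and 12.9, 10.03 and 11.4 CPM with Ezh2-Y726D. The groups did not overlap, and the log2 fold change was -0.86 (standard error 0.106). Col1a1 (ENSMUSG00000001506, plus strand of chromosome 11 from 94936224 to 94953042) measured 6.17, 3.61 and 4.64 CPM with GFP and 3.00, 3.03 and 3.62 CPM with Ezh2-Y726D. GFP replicate 1 was the highest library and GFP replicate 2 lay within the Ezh2-Y726D range. The log2 fold change of Col1a1 was -0.71 (standard error 0.169). Without GFP replicate 1 it was -0.33 and Col1a1 was no longer called, and that of Col1a2 was then -0.60 and still called. Per length, Col1a1 stood at 0.2004 to 0.234 of the Col1a2 level in the GFP libraries and at 0.209 to 0.287 in the Ezh2-Y726D libraries.

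Promoter sequence is shown for Col1a2, the called gene with a RefSeq window (GRCm38.p6), and for Tnc, a gene that was higher. RefSeq windows were matched for 7 of the 10 genes, and Thbs1, Fn1 and Col1a1 had none. The searched motifs, on both strands, were CCAAT, the TATA box TATAAA, the GC box GGGCGG and the AP-1 motif TGANTCA. They occur in 33.9%, 12.4%, 32.7% and 6.8% of 32841 RefSeq windows that cover the 250 bases before a start site. Both sequences run 5′ to 3′ on the strand of the gene, with matches in capitals. The Col1a2 stretch is chr6:4505370-4505492 on the plus strand, which covers -248 to -126 from the RefSeq start, and the other 127 bases of its window lie in annotated exons and are not shown. It holds 2 GC boxes, at -205 to -200 and at -188 to -183. A CCAAT match at -109 to -105 lies in the part not shown. The RefSeq start of Col1a2, at 4505618, lies inside the gene as annotated here (from 4504814), and so does the stretch shown. The Tnc stretch is chr4:64047016-64047265 on the minus strand, from -250 to -1, and holds a GC box at -167 to -162 and a TATA box at -126 to -121.
Col1a2: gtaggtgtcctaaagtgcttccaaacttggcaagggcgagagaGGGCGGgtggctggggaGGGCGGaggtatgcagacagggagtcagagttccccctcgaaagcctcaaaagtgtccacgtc
Tnc: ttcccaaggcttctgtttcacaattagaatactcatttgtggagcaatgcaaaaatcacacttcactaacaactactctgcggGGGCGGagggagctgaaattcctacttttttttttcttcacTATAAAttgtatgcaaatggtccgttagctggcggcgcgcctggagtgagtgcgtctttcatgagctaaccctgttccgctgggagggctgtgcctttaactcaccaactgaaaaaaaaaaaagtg

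The members' windows differed widely in CpG content, a feature of promoters that PRC2 is known to favour. The window of Col4a1 held 31 CpG dinucleotides at 74.4% GC and that of Thbs4 held 19 at 70.8% GC. The window of Thbs2 held 3 at 46.8% GC and that of Sparc 4 at 54.0% GC. Annotated exons cover 250 of the 250 bases of the Col4a1 window and 238 of those of Sparc, but 0 of those of Thbs2 and Thbs4. The RefSeq start used for Sparc, at 55420080, lies inside the gene as annotated here, as does that of Col1a2. The values of Col4a1 and Sparc are thus largely those of exon sequence. The Col4a1 window, from 11312827 to 11313076, lies before Col4a1 and inside Col4a2, which begins at 11312805 on the other strand. The median of all windows was 6 CpG dinucleotides and 52.4% GC. The window of Col1a2 held 11 at 62.0% GC and that of Tnc, before the start shown, held 8 at 44.8% GC. A motif match or a CpG count describes these letters and does not show binding of a factor.

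Fn1 encodes fibronectin, which cells assemble into fibrils through integrins. Fn1 (ENSMUSG00000026193, minus strand of chromosome 1 from 71585520 to 71653200) measured 87.9, 80.1 and 99.7 CPM with GFP and 67.9, 73.9 and 74.6 CPM with Ezh2-Y726D. Every GFP library lay above every Ezh2-Y726D library, and the log2 fold change was -0.30 (standard error 0.0564), under the 1.5-fold threshold. Col4a1 (ENSMUSG00000031502, minus strand of chromosome 8 from 11198423 to 11312826), which encodes a chain of basement membrane collagen, measured 69.6, 62.0 and 71.6 CPM with GFP and 65.2, 55.2 and 58.6 CPM with Ezh2-Y726D. Its groups overlapped, and its log2 fold change was -0.18 (standard error 0.0598). Col4a2, whose chain joins that of Col4a1 in the same trimer and whose gene lies next to it, was at 47.0 ± 0.716 CPM and 46.3 ± 0.677 CPM (SD, n = 3 each), which is -0.02 on the log2 scale (standard error 0.0544, edgeR adjusted p = 0.8685).

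The genes that were higher after Ezh2-Y726D without overlap between groups were Tnc and Sparc. Tnc (ENSMUSG00000028364, minus strand of chromosome 4 from 63959785 to 64047015), which encodes a large adhesion-modulating glycoprotein of developing and injured tissue, measured 77.1, 78.2 and 66.8 CPM with GFP. It measured 91.4, 92.7 and 88.8 CPM with Ezh2-Y726D, without overlap, a log2 fold change of 0.28 (standard error 0.0502). Sparc (ENSMUSG00000018593, minus strand of chromosome 11 from 55394500 to 55423183), which encodes a collagen-binding matricellular protein, measured 529, 533 and 532 CPM with GFP and 718, 697 and 687 CPM with Ezh2-Y726D. Its spread within groups was small beside the difference, and its log2 fold change of 0.40 (standard error 0.0379) ranged from 0.38 to 0.41 as each library was left out. Sparc made up 62.3% to 64.4% of the summed CPM of the 10 genes in the GFP libraries and 72.7% to 73.2% in the Ezh2-Y726D libraries. The sum of the 10 genes was therefore higher after Ezh2-Y726D (946 to 981 CPM, beside 828 to 854 CPM in the GFP libraries), whereas the sum without Sparc was lower (255 to 263 CPM, beside 295 to 322 CPM).

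**Figure D3:**
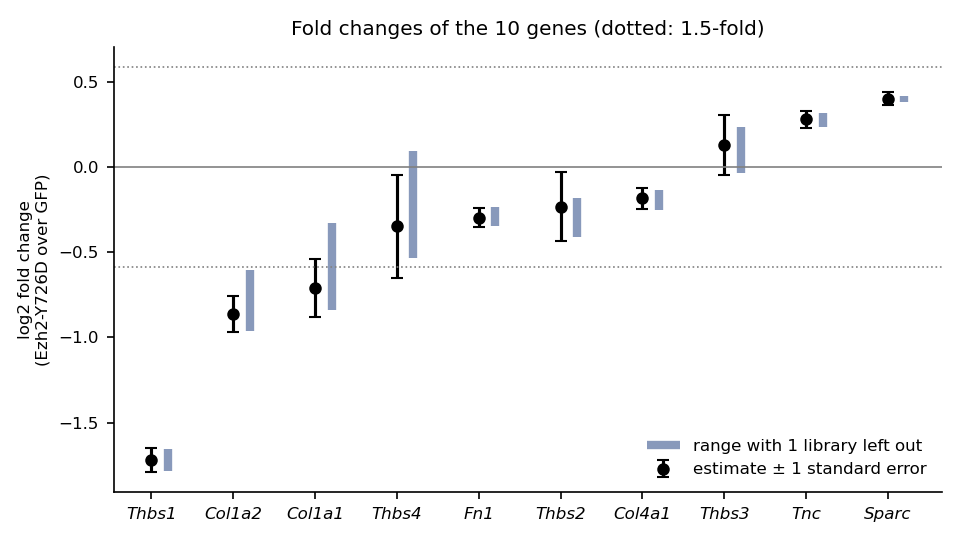
Log2 fold change of each of the 10 genes, Ezh2-Y726D over GFP: black points with whiskers are the estimate ± 1 standard error, blue bars the range when each of the 6 libraries is left out in turn, and dotted lines mark 1.5-fold. Thbs1 at -1.72 and Col1a2 at -0.86 stay below the lower line, the bar of Col1a1 crosses it, and those of Thbs3 and Thbs4 cross 0.

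The scaling set the zero of these differences. When library totals replaced TMM, all genes tested had a median log2 fold change of 0.492, and Thbs2, Thbs4, Fn1 and Col4a1 then had positive log2 fold changes. Relative to that median each of the 10 genes kept its direction, with -1.72 for Thbs1, -0.84 for Col1a2, -0.70 for Col1a1, 0.29 for Tnc and 0.42 for Sparc. With library totals that leave out the rRNA gene, the median of all genes was -0.018 and Thbs1 was at -1.74.

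Parts of some of these genes overlap others. The shared share of exonic length was 6.59% for Thbs3 (with Mtx1), 3.43% for Thbs1 (Gm29233), 2.5% for Fn1 (Apol7d), 2.27% for Tnc (8030451A03Rik) and 0.295% for Col4a1 (Col4a2), each with a gene on the other strand. The kit was stranded, but the strand setting of the counting is not given in the sources used here, so reads from these stretches are uncertain. No stretch of 50 bases in the transcripts was shared between any of the 10 genes.

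The genes with a pattern most like that of Thbs1 over the 6 libraries were sought among 12250 genes of at least 5 CPM, by the root mean square difference of log2(CPM + 0.5) after centring each gene on its own mean. This measure keeps the difference between groups, so it mainly finds genes with a similar fold change. The 5 nearest genes had log2 fold changes of -1.93 to -1.56. Whether they share a cell source with Thbs1 was not tested. The nearest was Cd93, a surface receptor of myeloid and endothelial cells, at a difference of 0.0949. It measured 22.7, 23.96 and 23.4 CPM with GFP and 7.43, 6.80 and 7.92 CPM with Ezh2-Y726D. Next were Oas3, an interferon-induced antiviral enzyme (0.153), Ms4a6d, a membrane protein of myeloid cells (0.16), Aoah, a lipopolysaccharide-inactivating hydrolase of phagocytes (0.16), and Siglec1, the macrophage receptor sialoadhesin (0.165). Siglec1 measured 16.1, 22.4 and 19.4 CPM with GFP and 4.99, 4.21 and 5.04 CPM with Ezh2-Y726D. Of the other matrix genes described here, Col1a2 was nearest to Thbs1, at 0.516, with 301 genes closer, and Sparc was the farthest, at 1.06.

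Summed markers of other cell types differed between the groups for some types and little for others. The 9 markers of activated phagocytes summed to 761, 831 and 850.1 CPM in the GFP libraries and to 198, 230.5 and 225 CPM in the Ezh2-Y726D libraries, and 8 of the 9 were called lower. Among them were Lyz2, a lysozyme of phagocytes (505 ± 29.7 CPM to 118 ± 12.4 CPM), and Gpnmb (157 ± 14.4 CPM to 31.4 ± 0.82 CPM; SD, n = 3 each). Thbs1 stood at 6.20, 5.78 and 6.08 CPM per 100 CPM of that list in the GFP libraries. In the Ezh2-Y726D libraries it stood at 8.09, 5.58 and 6.61. Ezh2-Y726D replicates 1 and 3 were thus above every GFP library in this ratio, and replicate 2 was below every GFP library. The 7 markers of homeostatic microglia summed to 399 to 450 CPM and 316 to 370 CPM. Of these 7, 0 were called lower and Sall1 was called higher (log2 fold change 0.61), and dropping the fold threshold gave 3 lower and 2 higher (edgeR). All 5 T cell markers were called lower, with sums of 76.8 to 80.6 CPM and 43.4 to 50.01 CPM. The part of these and the following cell types in the differences of the matrix genes was not tested. In a bulk sample, fewer cells of a type and less RNA per cell cannot be told apart.

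Markers of vascular, connective and glial cells were read in the same way. The 8 pericyte and smooth muscle markers summed to 234 to 254 CPM in the GFP libraries and 183 to 196 CPM in the Ezh2-Y726D libraries. Of these 8, 2 were called lower, and dropping the fold threshold gave 6 lower and 0 higher (edgeR). Only 2 of the 6 fibroblast markers passed the filter, and the list summed to 28.5 to 32.7 CPM and 31.1 to 36.4 CPM, mostly from Pdgfra, which had a log2 fold change of 0.18. The other tested marker, Fap, had a log2 fold change of -0.48, at 1.08 ± 0.51 and 0.576 ± 0.136 CPM (SD, n = 3 each), and neither was called. The 8 endothelial markers summed to 955 to 1016 CPM and 900.1 to 964 CPM with 0 called (2 had an adjusted p under 0.05 in edgeR). Platelets store much thrombospondin-1, and the 5 platelet markers found summed to 2.45 to 3.40 CPM and 1.91 to 2.34 CPM, with 1 of them passing the filter. The 3 neutrophil markers found were under 0.67 CPM in sum in every library, and none passed the filter. The 7 Müller glia markers summed to 8647 to 9104 CPM and 9059 to 9436 CPM, and amacrine markers rose, with sums of 1140 to 1282 CPM and 1823 to 1901 CPM and 3 of 6 called higher. The 5 astrocyte markers summed to 291 to 328 CPM and 242 to 287 CPM. Of the 4 tested, 1 was called lower and 0 higher, and 2 were lower at an adjusted p under 0.05 in edgeR. The 5 pigment epithelium markers summed to 534 to 584 CPM and 531 to 564 CPM.

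**Figure D4:**
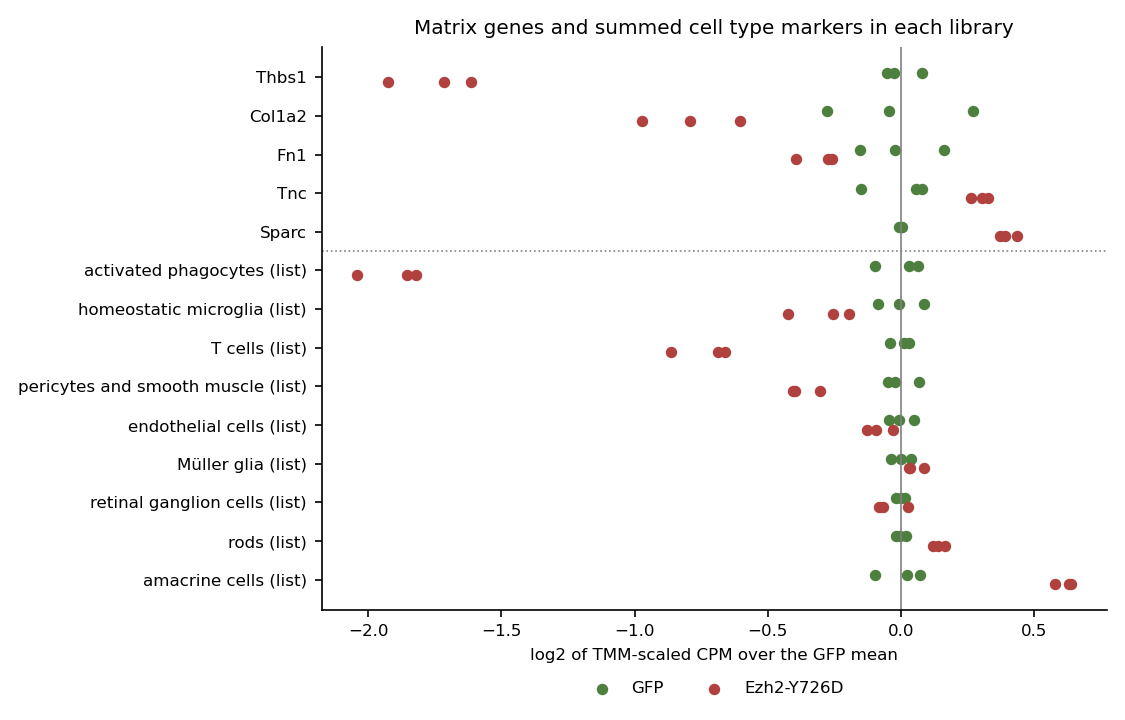
Log2 of TMM-scaled CPM over the mean of the GFP libraries, 1 point per library (GFP green, Ezh2-Y726D red), for 5 of the matrix genes above the dotted line and for the summed markers of 9 cell types below it. Thbs1 and the activated phagocyte list lie farthest to the left in the Ezh2-Y726D libraries, Tnc, Sparc and the amacrine list to the right.

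Partner genes of the matrix pathways were read from the same fit over all genes, in 8 lists with 158 genes. Of the 149 tested, 21 were called lower and 5 higher, beside 5.5% and 2.52% of all genes tested, and their median log2 fold change was -0.082. For named partner genes, adjusted p-values come from the quasi-likelihood test of edgeR with Benjamini-Hochberg adjustment over all 18138 genes, and levels are mean CPM ± SD with n = 3 in each group.

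Receptors for thrombospondins showed small differences. Of 12 tested, 0 were called by edgeR and 0 by DESeq2, 7 had an unadjusted p under 0.05, and the median log2 fold change was -0.103. Cd36, the scavenger receptor that binds Thbs1, fell from 4.73 ± 0.656 to 3.39 ± 0.265 CPM (log2 fold change -0.53, standard error 0.154, adjusted p = 0.00942), short of 1.5-fold. It passed 1.5-fold when GFP replicate 3 (-0.59) or Ezh2-Y726D replicate 3 (-0.60) was left out, whereas without GFP replicate 1 it was at -0.42 with an adjusted p of 0.197, and DESeq2 gave an adjusted p of 0.0758. Cd47, the receptor for the C-terminal part of thrombospondins, was at 60.5 ± 3.29 and 57.1 ± 1.44 CPM (adjusted p = 0.4335), and Lrp1, an endocytic receptor for thrombospondin complexes, at 383 ± 16.3 and 367 ± 8.25 CPM (adjusted p = 0.326). Cacna2d1 rose from 55.9 ± 4.21 to 67.7 ± 3.34 CPM (log2 fold change 0.30, standard error 0.056, adjusted p = 1.17e-04). The integrin subunit gene Itgav, which pairs with several beta subunits, had a log2 fold change of -0.13 (adjusted p = 0.0147), with an adjusted p of 0.0673 without GFP replicate 3 and of 0.0867 without Ezh2-Y726D replicate 2.

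Receptors for fibronectin and collagen included 1 gene called lower and 0 higher among 15 tested (DESeq2 also called 1 and 0, and 1 was higher at an unadjusted p under 0.05). Itga4, a fibronectin receptor subunit prominent on leukocytes, fell from 55.3 ± 4.24 to 35.5 ± 4.5 CPM (log2 fold change -0.65, standard error 0.0725, adjusted p = 4.38e-08). Without Ezh2-Y726D replicate 1 its log2 fold change was -0.55, under the fold threshold. Itgb1, the beta subunit shared by most receptors of this list, fell from 151 ± 8.83 to 119 ± 4.11 CPM (log2 fold change -0.34, adjusted p = 6.44e-07). Itga5, which forms the classical fibronectin receptor with Itgb1, was at 8.08 ± 1.85 and 7.65 ± 0.484 CPM (adjusted p = 0.4384).

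In the TGF-beta list, 5 of 21 genes were called lower and 0 higher by edgeR and by DESeq2, with 2 higher at an unadjusted p under 0.05, and the median log2 fold change was -0.117. Tgfb1, the ligand that Thbs1 can activate, fell from 10.3 ± 0.774 to 6.65 ± 0.621 CPM (log2 fold change -0.67, standard error 0.111, adjusted p = 2.42e-05). Without GFP replicate 1 it was at -0.58 and no longer called. Tgfbi, a TGF-beta-induced adhesion protein of the matrix, fell from 86.4, 98.9 and 94.4 CPM to 33.6, 42.6 and 39.4 CPM (log2 fold change -1.26, standard error 0.0661, adjusted p = 2.67e-14). Ltbp2, a latent TGF-beta binding protein homologue of microfibrils, fell from 2.90 ± 0.928 to 1.29 ± 0.32 CPM (log2 fold change -1.33, adjusted p = 7.56e-05), with 15 and 18 reads in GFP replicates 2 and 3 and 9.34% of its exonic length under D030025P21Rik on the other strand. It was -0.91 and not called without GFP replicate 1. Ccn2, a TGF-beta target, was at 58.7 ± 2.06 and 61.0 ± 5.35 CPM (adjusted p = 0.5212).

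**Figure D5:**
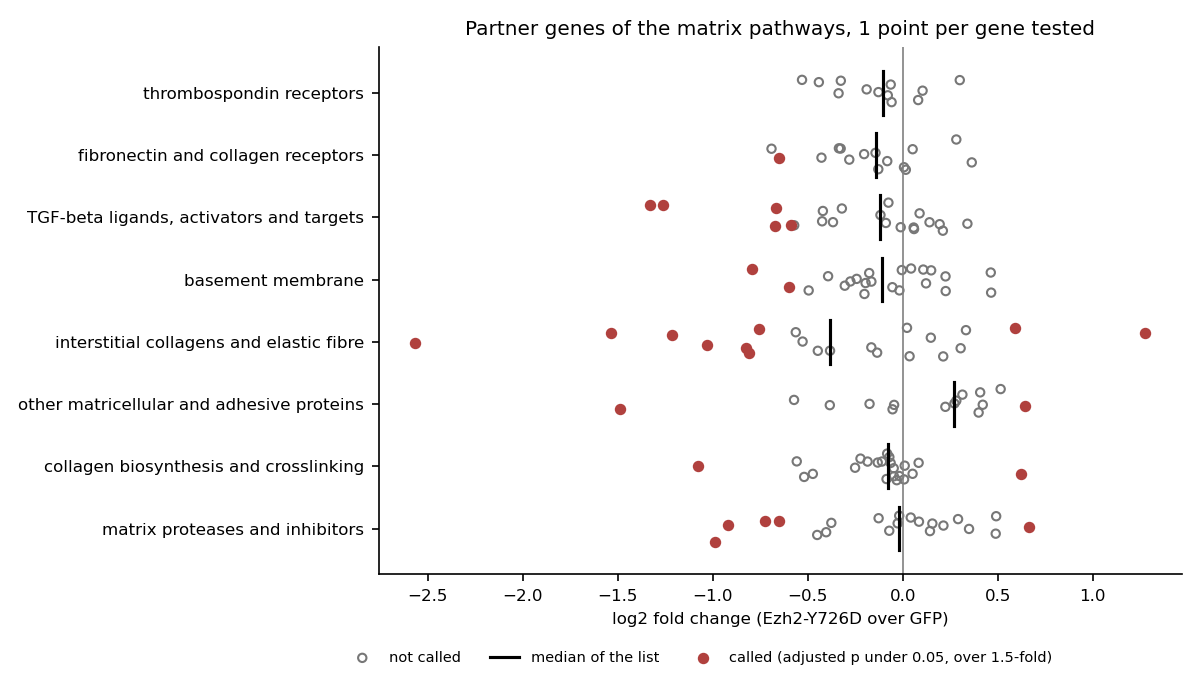
Log2 fold change, Ezh2-Y726D over GFP, of the 149 partner genes tested, 1 point per gene in 8 lists; filled red points were called, open grey points were not, and the black bar is the median of each list. The medians run from -0.383 for interstitial collagens and elastic fibre to 0.272 for the other matricellular proteins, and red points lie on both sides of 0 in 4 lists.

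The fibrillar and interstitial matrix list had 7 genes called lower and 2 higher among 21 tested, with a median log2 fold change of -0.383. Col3a1, the fibrillar collagen that is co-assembled with type I collagen, fell from 57.5, 49.5 and 52.3 CPM to 27.6, 21.7 and 29.2 CPM (log2 fold change -1.03, standard error 0.0778, adjusted p = 3.02e-11). Fbln1, a fibulin that binds fibronectin, fell from 7.41 ± 1.23 to 2.61 ± 0.336 CPM (log2 fold change -1.53, adjusted p = 5.62e-09). Col12a1, a collagen on the surface of collagen fibrils, rose from 11.1 ± 1.58 to 28.5 ± 0.53 CPM (log2 fold change 1.28, standard error 0.081, adjusted p = 9.66e-13). Genes of 1 list thus differed in both directions.

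In the basement membrane list, 2 of 22 genes were called lower and 0 higher, with 3 higher at an unadjusted p under 0.05 and 0 called by DESeq2. Lamb3, a laminin chain and the called gene of this list that met the naming rule, fell from 2.99 ± 0.0253 to 2.03 ± 0.617 CPM (log2 fold change -0.60, adjusted p = 0.0382). This call was lost on leaving out any library other than Ezh2-Y726D replicate 2, with log2 fold changes of -0.60 to -0.48.

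The other matricellular and adhesive proteins had a median log2 fold change of 0.272. Of 15 tested, 1 was called lower and 1 higher, while dropping the fold threshold gave 2 lower and 8 higher. Spp1, which encodes osteopontin, fell from 30.2, 35.8 and 41.9 CPM to 11.8, 12.2 and 12.5 CPM (log2 fold change -1.49, standard error 0.0886, adjusted p = 3.18e-13). Of its exonic length 18.8% is shared with Gm42793. Ccn1, an integrin-binding matricellular protein, rose from 55.3 ± 1.87 to 86.6 ± 15.8 CPM (log2 fold change 0.64, standard error 0.081, adjusted p = 3.54e-07). Without Ezh2-Y726D replicate 1, its highest library, Ccn1 was at 0.49 and not called. Sparcl1, the closest relative of Sparc, rose from 244 ± 16.1 to 325 ± 15.3 CPM (log2 fold change 0.41, standard error 0.0456, adjusted p = 4.66e-08), a difference of about the size of that of Sparc. Tnr, a neural relative of Tnc, rose by less, from 37.6 ± 0.29 to 43.9 ± 1.21 CPM (log2 fold change 0.22, adjusted p = 0.00323). Comp, a pentameric thrombospondin family member of cartilage, was at 0.88 ± 0.0452 and 0.60 ± 0.1 CPM (adjusted p = 0.225).

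In collagen biosynthesis and crosslinking, 1 of 22 genes was called lower and 1 higher, with a median of -0.076. Adamts2, the procollagen N-proteinase, rose from 5.41 ± 0.48 to 8.12 ± 0.601 CPM (log2 fold change 0.62, adjusted p = 2.85e-04) but was under 1.5-fold without GFP replicate 1 (0.55) or Ezh2-Y726D replicate 1 (0.57). The collagen chaperone gene Serpinh1 was at 40.0 ± 2.34 and 37.7 ± 2.23 CPM (adjusted p = 0.2147), and Lox, a collagen crosslinking enzyme, at 0.76 ± 0.543 and 0.70 ± 0.372 CPM (adjusted p = 0.4269). Among 21 matrix proteases and inhibitors, 4 were called lower and 1 higher. Plau, the urokinase-type plasminogen activator, fell from 7.31 ± 0.304 to 3.75 ± 0.349 CPM (log2 fold change -0.99, adjusted p = 1.23e-06). Mmp17, a membrane-anchored metalloproteinase, rose from 10.1 ± 1.14 to 16.4 ± 0.987 CPM (log2 fold change 0.66, adjusted p = 1.92e-06). Mmp14, a membrane-type collagenase, fell from 69.5 ± 1.89 to 52.2 ± 1.49 CPM (log2 fold change -0.40, adjusted p = 3.33e-07), and Timp1, a metalloproteinase inhibitor, fell from 9.07 ± 0.291 to 6.58 ± 0.396 CPM (log2 fold change -0.45, adjusted p = 0.00258), both short of 1.5-fold.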

How the data were processed

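RNA-Seq counts of 3 GFP and 3 Ezh2-Y726D libraries were used. The authors deposited 1 table of raw read counts per Ensembl gene without normalization, in which each column names its sample. The submitters' processing notes name STAR 2.7.0d and GRCm38. The counting tool, annotation and strand setting are not given in the sources used here. Symbols were found for 32325 of 32371 identifiers. Counts were scaled by TMM (factors 0.647 to 1.31) and tested with edgeR 4.0.16 in R 4.3.3 by the quasi-likelihood test after filterByExpr (10 counts, total 15), with Benjamini-Hochberg adjustment over 18138 genes. DESeq2 1.42.0 was an alternative. Standard errors were computed as the log2 fold change over the square root of F. The procedure was tested on simulated data. An exact permutation test (2-sided) over libraries has a smallest p of 0.1 in this design.

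The 10 genes, the partner lists and the marker lists were chosen with earlier results of these data known. Named partner genes were a set of receptors, TGF-beta genes and matrix genes taken whatever their values, plus the called gene with the largest fall and the largest rise of each list, among those with a mean normalized count of at least 50 and no overlap between groups. Genes without this basis are said to have been chosen after their values were seen. Lyz2, Gpnmb, Sall1, Pdgfra, Fap, Tgfb3 and CT010467.1 were so chosen. Gp9, Camp and Ngp of the marker lists were not found among the identifiers.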

Additional observations from a re-analysis of the deposited data

How the results depend on the processing

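Alternatives were RLE size factors, library totals with and without the rRNA gene, DESeq2, other filters, other fold thresholds, the replicate number as a block and leaving out each library. Leaving out GFP replicates 2 and 3 together and thinning counts to the shallowest library were added after the data were seen. All genes, the 10 matrix genes and the partner genes gave 1455, 3 and 26 calls. Library totals gave 65, 0 and 2 (edgeR, with 3 of the 10 matrix genes at an unadjusted p under 0.05; DESeq2 was run with its own size factors only and called 3), and 29.2% of all calls were then lower in place of 68.6%. No fold threshold gave 4988, 7 and 73, a fold change over 2 gave 443, 1 and 9, and thinning gave 641, 2 and 10. The thinned matrix gene no longer called was Col1a1, at -0.64. Leaving out 1 library gave 1207 to 1404, 2 to 3 and 18 to 26, the lowest without GFP replicate 1. DESeq2 called 1126, 3 and 19, and leaving out GFP replicates 2 and 3 gave 1401, 3 and 27. Deviations of libraries with the same number correlated at r = 0.106, 0.042 and 0.031 across genes. Those with different numbers correlated at -0.064 to 0.021, lower in each case. The labels name no pairs and all values were small, so the numbers were not taken as pairs, but a weak pairing was not excluded. The fit with the replicate number as a block called 1403, 3 and 26.

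For single genes, 529 of 595 fold changes under an alternative kept their direction and their side of the threshold, 36 lost the call, 8 gained it and 22 changed sign. Of the sign changes 14 came with library totals, at 0.21 for Thbs2, 0.11 for Thbs4, 0.20 for Fn1, 0.32 for Col4a1, 0.48 for Col4a2, 0.44 for Cd47, 0.46 for Lrp1, 0.38 for Itgav, 0.17 for Itgb1, 0.37 for Itga5, 0.40 for Serpinh1, 0.0002 for Lox, 0.10 for Mmp14 and 0.034 for Timp1, where all genes shifted by 0.492. Leaving out 1 library gave -0.037 to 0.24 for Thbs3, -0.53 to 0.095 for Thbs4 and -1.01 to 0.28 for Lox, each with its sign change without GFP replicate 1, and -0.015 for Ccn2 without Ezh2-Y726D replicate 1. The others were Cd47 at 0.0016 without GFP replicates 2 and 3, and Thbs3 at -0.040, Thbs4 at 0.73 and Col4a2 at 0.11 after thinning. The cause was not tested for the 8 sign changes other than those with library totals. Depth limits Thbs2, Thbs3, Thbs4 and Col1a1 among the 10 matrix genes, with 5 to 28 reads in GFP replicates 2 and 3. Among partner genes named, Comp had 7 and 5 reads there and Lox 7 and 1.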

Other observations

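Some called partner genes lay outside the rule for named genes and are given here because they were called, after their values were seen. In the interstitial list, Fbln2, an elastic fibre and basement membrane fibulin, measured 1.93, 1.67 and 1.66 CPM with GFP and 0.26, 0.49 and 0.20 CPM with Ezh2-Y726D (log2 fold change -2.57, standard error 0.339). Dcn, the collagen-binding proteoglycan decorin, stood at -1.22 on the log2 scale (standard error 0.218), Fbln5 at -0.82, Col14a1 at -0.81 and Col6a3 at -0.76. Col6a1, which encodes another chain of collagen VI, went the other way, from 59.6 ± 5.82 to 89.2 ± 4.67 CPM (SD, n = 3 each). Its log2 fold change was 0.59, just over the 1.5-fold threshold. Col6a3 and Col6a1 thus differed in opposite directions.

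In the TGF-beta list the receptor gene Tgfbr2 (log2 fold change -0.59) and Lrrc32, which holds latent TGF-beta on the cell surface (-0.66), were lower, and Tgfb3 was higher by less than 1.5-fold, from 19.6 ± 0.541 to 24.6 ± 1.24 CPM (SD, n = 3 each; log2 fold change 0.34). Among the proteases and their receptors, Mmp19 (-0.92), the urokinase receptor gene Plaur (-0.73) and Mmp2 (-0.65) were lower, as was the crosslinking enzyme gene Loxl4 (-1.08, with 11 and 6 reads in GFP replicates 2 and 3). Nid2, a basement membrane linker protein, was at -0.79. DESeq2 called neither Loxl4 nor Nid2, with 0 genes lower in either of their lists, and in the interstitial list it called 5 genes lower and 1 higher, beside 7 and 2 by edgeR. Of the exonic length of Mmp19, 28.3% overlaps Gm47093 or Tmem198b on the other strand, and 8.45% of that of Nid2 overlaps Rtraf.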
